A study of Mus musculus with 6 samples.

Results

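The tailbud of the wildtype mouse embryo at E10.5 was profiled in 4 RNA-seq libraries, which were all the libraries labelled wildtype among the 6 samples of the series. Each library came from the tailbud of a C57BL/6 embryo that had been through pronuclear injection of the Cdx2P:Nr6a1 transgene and did not carry it, so the injection procedure was shared by all 4 embryos. The stage is that of the labels, and a heading in the study's source data names an earlier stage for the same libraries. The dissected piece was the whole of the tissue posterior to the last formed somite. From each embryo 50 ng of RNA was made into a stranded poly(A) library, which was read as 75-base single-end reads. The libraries of the transgenic embryos were not used, and no comparison of groups was made.

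The tailbud is the growth zone at the posterior tip of the embryo from which the trunk and then the tail are laid down. It holds neuromesodermal progenitors, which keep T and Sox2 active together and give rise to both spinal cord and paraxial mesoderm, the presomitic mesoderm that is cut into somites by an oscillating segmentation clock, the end of the notochord, the hindgut, surface ectoderm and blood vessels. Wnt and FGF signals keep the progenitors going, retinoic acid from the somites opposes them, and Hox genes are switched on from the 3′ to the 5′ end of each cluster as the axis grows.

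The 4 libraries held between 44969068 and 55920173 counts over 54134 genes. A count was recorded for 31057 genes in at least 1 library, and 12602 genes had over 10 counts and a CPM, the count per 1000000 counts of the library, over 2 in at least 2 libraries, which is referred to below as passing the filter. This was 23.3% of all genes and 54.6% of the 21800 protein coding genes. Levels of different genes are given as transcripts per 1000000 (TPM), the count divided by the summed exon length and scaled to 1000000 in each library, and CPM is used where the spread of one gene between libraries is described. Errors are SD over the 4 libraries. Across the genes that passed, the log2 CPM of any 2 libraries correlated with a Pearson r between 0.993 and 0.996, which is a description across genes that are not independent of each other. No library stood apart on this measure. Replicate 1 held the largest share of haemoglobin transcripts, and replicate 3 was the only library with more than 2 counts of the Y-linked genes Kdm5d, Eif2s3y and Ddx3y, as described with the spread between libraries.

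The 6 genes taken as marks of a tailbud were all high. T, the T-box factor of progenitors and notochord on chromosome 17 (8434423 to 8442496, mm10), was at 1670, 1811, 1638 and 1430 TPM in replicates 1 to 4 and ranked 37th of all genes by its mean of 1637 ± 157 TPM. Msgn1, a bHLH factor that drives presomitic mesoderm fate, was at 999, 1524, 1231 and 1404 TPM and lay on chromosome 12 (11208360 to 11208972). Tbx6, which turns progenitors towards mesoderm and away from neural fate, was at 510, 457, 474 and 470 TPM. All 3 genes exceeded the median of 26.7 TPM over the genes that passed the filter in every library. Cdx2, a caudal-type factor needed for axial growth, was at 452, 446, 464 and 444 TPM. The most 5′ Hox genes of their clusters were lower, with Hoxc13 at 379, 364, 371 and 333 TPM and Hoxb13 at 315, 285, 266 and 229 TPM. Hoxb13 was the more variable of the pair, with a coefficient of variation (CV) of 13.7% against 5.60% for Hoxc13.

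Promoter sequences are shown for genes whose levels moved together between the 4 libraries and which are described below, namely targets of Notch signalling, targets of Wnt signalling and an embryonic globin. Each is the RefSeq sequence of GRCm38.p6 upstream of the transcription start, printed 5′ to 3′ on the gene's strand and ending before the first exon base of the gene in the count table. Positions of matches are counted from the RefSeq start. The printed sequence stops 21 bases short of that start for Lfng, 24 for Msgn1 and 9 for Hbb-y. The first pair belongs to Lfng, which encodes a glycosyltransferase that modifies Notch receptors (chr5:140607091-140607319, plus strand, 229 bases), and to Nrarp, which encodes a Notch feedback inhibitor (chr2:25180508-25180757, plus strand, 250 bases). Capitals mark CACGTG and CACGCG, which are letters bound by Hes-type repressors, and TGGGAA, the core read by the Notch effector RBPJ, on either strand.
Lfng: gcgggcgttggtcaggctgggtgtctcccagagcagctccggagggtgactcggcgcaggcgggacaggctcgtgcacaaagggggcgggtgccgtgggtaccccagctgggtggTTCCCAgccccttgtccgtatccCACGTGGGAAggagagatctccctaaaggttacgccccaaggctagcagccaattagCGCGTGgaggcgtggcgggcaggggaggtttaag
Nrarp: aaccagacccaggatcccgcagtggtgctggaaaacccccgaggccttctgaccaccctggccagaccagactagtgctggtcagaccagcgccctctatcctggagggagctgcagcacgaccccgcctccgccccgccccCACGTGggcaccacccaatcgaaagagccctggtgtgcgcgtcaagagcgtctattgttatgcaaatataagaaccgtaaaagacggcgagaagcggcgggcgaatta
The Lfng window held 4 such matches, among them a CACGTG starting 112 bases before the transcription start that overlaps a TGGGAA starting at 108. As many matches were found in 0.186% of all 32851 promoter windows of 250 bases. Nrarp held a CACGTG at 108 bases and no other match, and 32.2% of all windows held at least 1 match. Taken singly, CACGTG was present in 6.02% of all windows, CACGCG in 7.62% and TGGGAA in 21.6%. Of the 10 clock genes with a promoter in the table, 2, 3 and 3 held these words in that order, and the windows shown were picked from them.

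The second pair belongs to Sp5, which encodes a zinc-finger factor downstream of Wnt (chr2:70474673-70474922, plus strand, 250 bases), and to Msgn1 (chr12:11208973-11209198, minus strand, 226 bases). Capitals mark CTTTGA and CTTTGT, letters read by TCF and LEF factors, on either strand.
Sp5: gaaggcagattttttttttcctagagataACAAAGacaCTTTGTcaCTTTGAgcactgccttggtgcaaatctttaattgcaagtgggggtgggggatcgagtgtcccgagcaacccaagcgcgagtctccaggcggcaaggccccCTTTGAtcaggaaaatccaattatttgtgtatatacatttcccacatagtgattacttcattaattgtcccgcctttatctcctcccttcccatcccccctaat
Msgn1: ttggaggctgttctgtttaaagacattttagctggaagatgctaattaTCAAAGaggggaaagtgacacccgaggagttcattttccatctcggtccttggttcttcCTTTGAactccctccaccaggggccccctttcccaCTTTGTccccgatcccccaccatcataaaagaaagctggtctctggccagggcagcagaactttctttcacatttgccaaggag
Sp5 held 4 matches, at 221, 212, 204 and 104 bases before the start, a number reached by 0.0944% of all windows. Msgn1 held 3, at 202, 143 and 108 bases, a number reached by 0.776%. CTTTGA was present in 13.8% and CTTTGT in 16.5% of all windows, and in 1 and 4 of the 10 clock promoters. Sp5 and Msgn1 lie outside the clock list and were picked after their values were seen, so these shares are a description only. The last sequence is that of Hbb-y, the embryonic epsilon-type globin gene (chr7:103853217-103853457, minus strand, 241 bases), with 4 words in capitals on either strand, namely GATAA, which GATA factors read, CACCC, which Klf-type factors read, CCAAT, the CCAAT box, and ATAAA, which resembles a TATA box.
Hbb-y: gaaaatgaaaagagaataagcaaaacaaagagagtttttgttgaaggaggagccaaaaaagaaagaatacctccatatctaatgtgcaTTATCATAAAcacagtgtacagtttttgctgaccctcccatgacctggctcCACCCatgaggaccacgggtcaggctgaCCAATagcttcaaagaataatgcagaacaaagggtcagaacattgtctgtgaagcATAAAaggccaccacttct
It held GATAA at 162, CACCC at 111, CCAAT at 83 and ATAAA at 157 and 28 bases before the start, of which the GATAA and the first ATAAA lie side by side. As many matches of these 4 words were found in 9.85% of all windows. Singly they were present in 22.6%, 52.0%, 33.8% and 37.3% of all windows in that order, and in 6, 6, 5 and 3 of the 6 globin promoters in the table. A match is a match of letters, and binding was not measured here.

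Progenitor and presomitic genes were high as whole lists. All 10 neuromesodermal progenitor genes passed the filter, with summed levels of 4208, 4638, 4373 and 3922 TPM. After T they were led by Fgf17 at 511 ± 35.3 TPM, Cdx4 at 501 ± 57.5 TPM and Cdx2. Sox2, the neural part of the progenitor signature, was much lower than T, at 40.6, 50.2, 48.0 and 50.8 TPM, and Nkx1-2, a homeobox gene of the progenitor zone, was at 90.04 ± 10.8 TPM. All 10 posterior presomitic genes passed as well. They were led by Msgn1, Tbx6, the Notch ligand Dll3 at 293 ± 5.25 TPM and the Notch ligand Dll1 at 249 ± 34.6 TPM.

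Genes of the next steps of segmentation were divided between moderate levels and near 0. Of 8 anterior presomitic genes 4 passed, namely Epha4 at 130 ± 14.2 TPM, Pcdh8 at 19.7 ± 5.68 TPM, Foxc1 at 17.2 ± 1.64 TPM and Foxc2 at 6.86 ± 1.40 TPM. Mesp2, the bHLH factor that sets the next segment border, had 0, 0, 5 and 2 counts, and its neighbour Mesp1 had 0 counts in every library. Ripply2, which ends the activity of Mesp2 and Tbx6, had 2, 0, 6 and 3 counts, and Ripply1 had at most 1 count in a library. With 3 counts as the limit that a count of 0 allows, a level up to 0.0667 CPM in the smallest library was not detectable. In bulk tissue, fewer cells of a type and less RNA in each cell cannot be told apart.

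Somite genes were divided in the same way. Tcf15 and Pax3, which are active in early and in epithelial paraxial mesoderm, were at 43.99 ± 5.14 and 33.2 ± 1.53 TPM, followed by Aldh1a2, the retinoic acid synthase, at 26.9 ± 3.16 TPM and Meox1 at 24.3 ± 3.11 TPM. Pax9 was at 4.54 ± 1.73 TPM. The other 5 of the 10 somite genes did not pass, with Uncx, the gene of the posterior part of a somite, at 0.256 ± 0.156 TPM and Tbx18, that of the anterior part, at 0.00736 ± 0.00856 TPM. No member of the lists for skeletal muscle (6 genes) and heart (9 genes) passed. The highest of the heart list was Myl7, an atrial myosin light chain, with 31 to 67 counts in a library, and the highest of the muscle list was Actn2 at 0.989 ± 0.138 TPM, while Myf6 had 0 counts in every library.

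**Figure D1:**
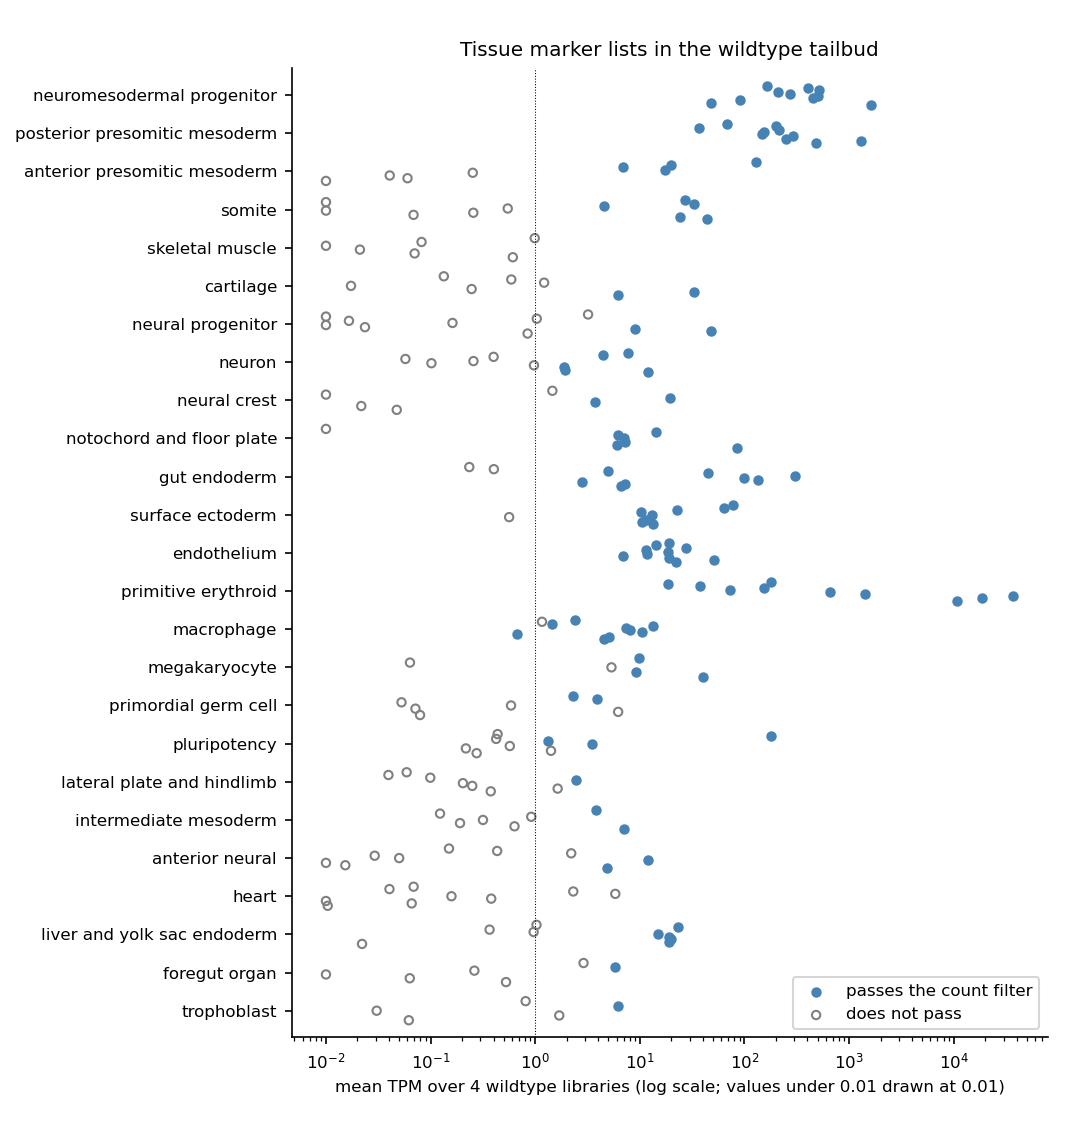
Each point is a gene of a tissue marker list at its mean TPM over the 4 wildtype libraries on a log axis, filled where the gene passed the filter, with the dotted line at 1 TPM. The lists for neuromesodermal progenitors, posterior presomitic mesoderm, endothelium and primitive erythroid cells consist of filled points only, and those for skeletal muscle and heart of open points only.

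Neural genes were sparse beyond the progenitor stage. Only Sox2 and Sox3 (8.94 ± 1.43 TPM) of 10 neural progenitor genes passed. Pax6, which marks the maturing spinal cord, had 1 to 7 counts in a library and Olig2, the motor neuron progenitor factor, had 0 in every library. The neuron list had 5 of 10 members past the filter, led by the tubulin gene Tubb3 at 11.9 ± 0.960 TPM, while Neurog2 was at 0.257 ± 0.117 TPM. Of the neural crest list, Erbb3 was the highest at 19.6 ± 2.17 TPM and Sox10, the defining factor, was at 0.0475 ± 0.0425 TPM. Of 9 anterior neural genes, those of the head, 2 passed. Emx2, which is also active in urogenital tissue, was the highest at 11.98 ± 1.33 TPM. Otx1 was at 4.90 and Hesx1 at 2.21 TPM on average, and Otx2 was at 0.0153 ± 0.0123 TPM.

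Notochord, gut, skin and vessel genes were all detected. Noto, the homeobox gene of the node and posterior notochord, was at 67.5, 83.8, 96.5 and 91.2 TPM, and 6 of 7 notochord and floor plate genes passed, with Foxa2 at 7.24 ± 1.84 TPM. Of 10 gut endoderm genes 8 passed. The highest were Cldn6 at 302 ± 27.1 TPM, Epcam at 134 ± 14.7 TPM and Cdh1 at 99.8 ± 12.97 TPM, which other epithelia express too, whereas Sox17 was at 2.77 ± 0.486 TPM. Surface ectoderm had 8 of 9 genes past the filter, led by Perp at 78.4 ± 16.8 TPM and Wnt6 at 64.4 ± 8.50 TPM. All 10 endothelial genes passed, from Cdh5, the cadherin of endothelial junctions, at 50.9 ± 6.19 TPM to Flt1 at 6.93 ± 0.684 TPM. Macrophage genes passed in 9 of 10 cases at low levels, with C1qb at 12.1, 6.44, 17.1 and 18.2 TPM.

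In some lists few members passed. Of the lateral plate and hindlimb list, 1 of 8 genes passed, Pitx1 at 2.44 ± 0.668 TPM, while Tbx4 was at 0.204 ± 0.0609 TPM. Sall4, shared by embryonic stem cells and the tailbud, was at 178 ± 8.46 TPM, but Pou5f1, the core pluripotency factor, was at 0.276 ± 0.0897 TPM. Of 7 germ cell genes 2 passed, Dnd1 at 3.91 ± 0.344 TPM and Prdm1 at 2.32 ± 0.216 TPM, while the short transcript of Nanos3 was at 6.21 ± 0.685 TPM without reaching the count per library that the filter asks for. Of 7 cartilage genes 2 passed, the collagen gene Col2a1 at 33.1 ± 2.57 TPM and its regulator Sox9 at 6.21 ± 0.356 TPM. Of 7 intermediate mesoderm genes 2 passed, Pax2 at 7.04 ± 0.551 TPM and Ret, the receptor that guides ureteric bud growth, at 3.82 ± 0.283 TPM. In the foregut organ list 1 of 6 genes passed, Hhex at 5.82 ± 1.33 TPM, and in the trophoblast list 1 of 5, Plac1 at 6.23 ± 1.03 TPM.

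All 39 Hox genes passed the filter, with sums of 5071, 5574, 5418 and 4984 TPM. The HoxC cluster held the largest part, 33.8% ± 0.300 of all Hox TPM with 9 genes, and HoxA the smallest, 17.5% ± 0.351 with 11 genes. HoxB held 24.6% ± 1.05 and HoxD 24.1% ± 0.758. By paralog group, Hox1 to Hox4, which pattern hindbrain and neck, held 13.1% ± 0.520, Hox5 to Hox10, the trunk groups, held 48.9% ± 0.300, and Hox11 to Hox13, the sacral and tail groups, held 37.9% ± 0.790.

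The highest Hox gene was Hoxc10, a paralog group 10 gene of chromosome 15 (102966796 to 102971893), at 452, 472, 483 and 465 TPM. It was above the next, Hoxb9 at 404, 388, 355 and 324 TPM, in 4 of 4 libraries and their ranges did not overlap. Below Hoxc10 the order was less sharp. Hoxb9 was above Hoxc13 in 2 of 4 libraries, and Hoxc13 above Hoxc12 (348 ± 18.7 TPM) in 2 of 4. Hoxd12 followed at 313 ± 18.7 TPM and Hoxd10 at 279 ± 22.4 TPM. Over all 38 neighbours in the order of Hox levels, 20 kept their order in 4 of 4 libraries and 5 had ranges that were apart.

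Within a cluster the level did not change evenly along the chromosome. Hoxb1, at the 3′ end of its cluster, was at 216, 265, 250 and 223 TPM, the highest of Hox1 to Hox4, and its neighbour Hoxb2 was at 15.3 TPM on average. The range of Hoxb1 lay above that of Hoxd11, the next lower Hox gene at 196 ± 13.8 TPM. Group 13 differed between clusters, with Hoxc13 and Hoxb13 above Hoxd13 at 174 ± 11.1 TPM and Hoxa13 at 98.7 ± 7.91 TPM. The lowest of all was Hoxd3 at 13.3 ± 1.53 TPM. That value is affected by shared exons. Of the Hox genes, 10 shared over 10% of their exon bases with another gene, and reads on shared bases appear not to have been counted in this table. Over unshared bases alone Hoxd3 was at 34.3, Hoxb3 at 83.6 instead of 41.0 and Hoxd4 at 87.2 instead of 43.4 TPM, the lowest gene was Hoxb5 at 20.05 TPM, and the first 17 places were unchanged. Hoxb1 was then at 229 ± 21.8 and Hoxd11 at 210 ± 14.7 TPM, so that these 2 were no longer clearly apart.

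**Figure D2:**
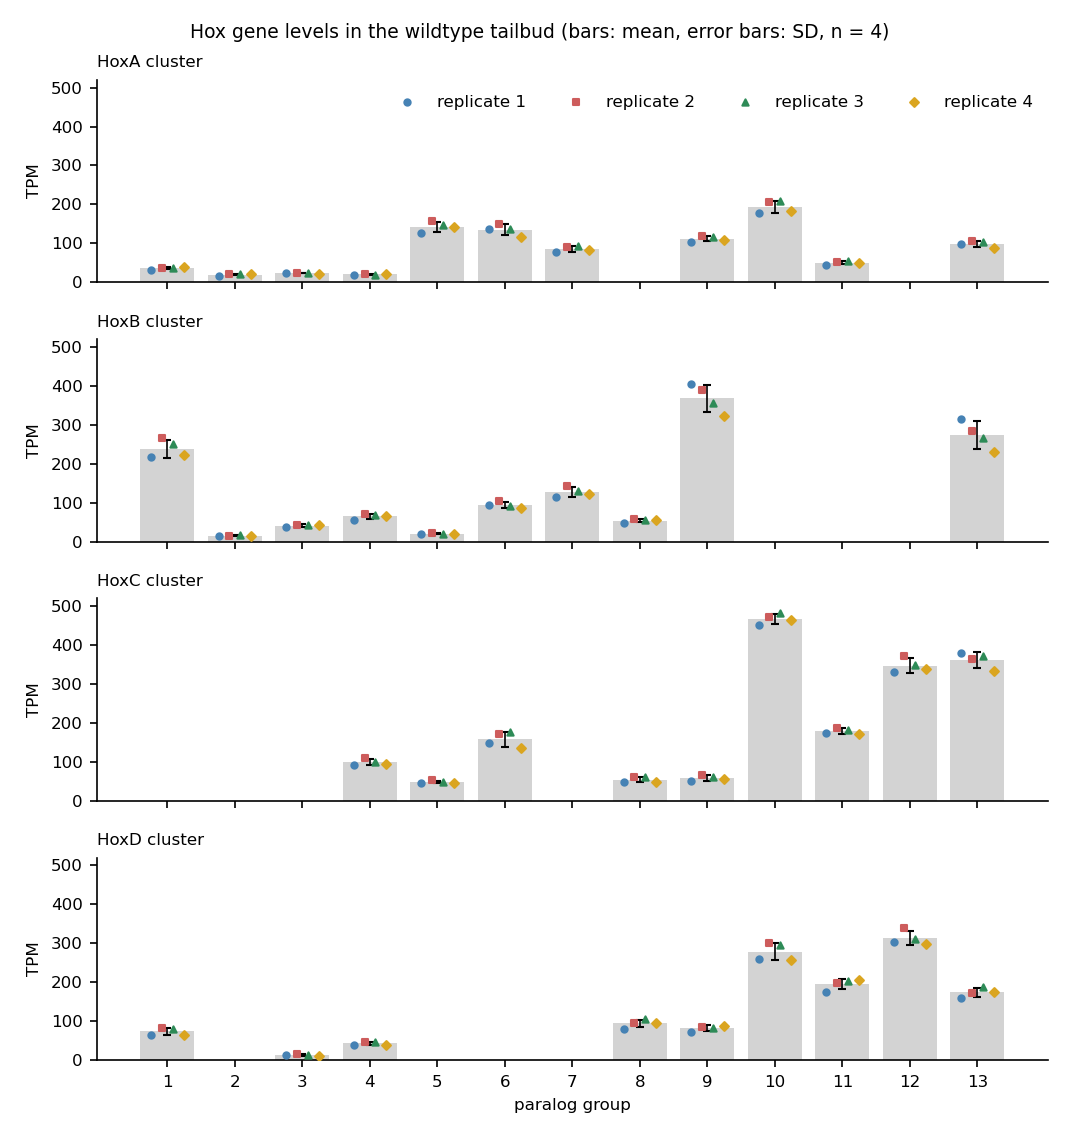
Bars give the mean TPM of each Hox gene over the 4 wildtype libraries, error bars the SD, and points the libraries, in 1 panel per cluster by paralog group. Hoxc10 is the highest bar, Hoxb1 stands above the other genes of groups 1 to 4, and the points of a gene lie close together.

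Families of transcription factors outside the Hox clusters differed in how many members passed the filter. Of 17 T-box genes 5 passed, and T and Tbx6 were followed by Mga at 46.7 ± 4.36 TPM. Among Cdx genes, Cdx4 (452, 578, 511 and 463 TPM) was above Cdx2 in 3 of 4 libraries with overlapping ranges, and Cdx1 was at 20.3 ± 1.70 TPM. Sall1, a zinc-finger gene mutated in a human syndrome of limb and anal malformation, was the highest Sall gene at 369 ± 17.8 TPM. Evx1, the even-skipped homolog at the 5′ end of HoxA, was at 204, 213, 192 and 179 TPM, while Evx2 beside HoxD was at 0.485 ± 0.0843 TPM. Their ranges were far apart.

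Among other families the share of members that passed also ranged from small to all. Tead2, a DNA-binding partner of YAP, was at 355 ± 9.63 TPM and Tead1 at 46.4 ± 2.06 TPM. Of 44 Fox genes 20 passed, led by Foxo4 at 267 ± 8.66 TPM, Foxk2 at 133 ± 1.68 TPM and Foxb1 at 122 ± 12.6 TPM, or 136 TPM over its unshared exon bases. Of 20 Sox genes 13 passed, led by Sox12, Sox11 and Sox4 at 75.8, 71.5 and 60.1 TPM on average. Sox4 was at 127 TPM over unshared exon bases. Of 9 Pax genes 3 passed, led by Pax3, and of 6 Gata genes 2 passed, led by the erythroid Gata1 at 18.8 ± 5.63 TPM. All 7 Meis and Pbx genes, which encode partners of Hox proteins on DNA, passed, led by Pbx2 at 197 ± 7.602 TPM. Among the Sp and Klf genes 21 of 26 passed, led by Sp5 at 165 ± 24.8 TPM. All 4 Id genes, inhibitors of bHLH factors, passed, led by Id1 at 294 ± 68.3 TPM and Id3 at 177 ± 26.6 TPM. Msx1, a BMP-responsive homeobox gene, led 7 of 9 passing Msx and Dlx genes at 89.2 ± 6.38 TPM.

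Among nuclear receptors 21 of 49 passed, led by Rarg, a retinoic acid receptor, at 169 ± 13.1 TPM. Nr6a1, the orphan receptor that the study is about, was at 1.22, 1.69, 1.81 and 2.16 TPM, low but past the filter, with 192 to 310 counts in a library. Of the trunk-to-tail list, which joins Nr6a1 with genes known to set the timing of axial growth, 8 of 10 passed. Gdf11, the ligand that starts tail formation, was at 340 ± 25.2 TPM, and Hmga2, Lin28a and Igf2bp1 were at 282 ± 18.1, 152 ± 15.6 and 135 ± 9.19 TPM. Lin28b was lower than Lin28a at 20.98 ± 2.80 TPM.

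Of the Wnt pathway, 14 of 19 ligand genes passed. Wnt5a, a ligand of the planar polarity branch, was at 367, 378, 391 and 355 TPM. Wnt3a, the ligand that sustains progenitors through beta-catenin, was at 295, 276, 281 and 238 TPM. Wnt5b followed at 166 ± 19.6 TPM and Wnt6 at 64.4 TPM, and the ranges of these 4 were apart in that order. Wnt1, the midbrain and dorsal cord ligand, had 0 counts in every library. Of 19 receptors and coreceptors 17 passed, led by Ptk7, a planar polarity coreceptor, at 1409, 1446, 1415 and 1344 TPM, with Fzd10 at 172 ± 5.36 and Ryk at 132 ± 7.05 TPM. The modifiers were led by Rspo3, which enhances Wnt signalling, at 215 ± 14.3 TPM, and by the antagonists Nkd2 and Frzb at 172 ± 25.9 and 148 ± 7.68 TPM. Beta-catenin (Ctnnb1) was at 791 ± 19.7 TPM, and Tcf7 was the highest of the TCF and LEF genes at 128 ± 2.31 TPM.

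Of 22 FGF ligand genes 10 passed. Fgf17, which belongs to the Fgf8 subfamily, was at 513, 551, 516 and 465 TPM, above Fgf8 at 165, 256, 203 and 211 TPM in every library. Fgf3 (196 ± 13.8 TPM) could not be ordered with Fgf8, which exceeded it in 3 of 4 libraries. Fgf4, which acts with Fgf8 in the presomitic mesoderm, was at 37.1 ± 6.42 TPM, and Fgf5 and Fgf16 had 0 counts. All 5 receptor genes passed, with Fgfr1 at 118 ± 4.03, the decoy Fgfrl1 at 91.5 ± 2.26 and Fgfr2 at 16.9 ± 1.99 TPM. All 11 feedback and target genes passed. Dusp4 and Dusp6, phosphatases that switch off ERK, were the highest at 537 ± 197 and 417 ± 47.4 TPM, and the ETS factors Etv4 and Etv5 were at 274 ± 12.5 and 124 ± 7.18 TPM.

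Notch genes were present at every step. Dll3, the clock-associated ligand, was at 294, 291, 300 and 287 TPM, and Dll1, the main activating ligand of the presomitic mesoderm, was at 280, 236, 273 and 205 TPM. Their order was not settled, since 867 of the 4219 exon bases of Dll1 are shared with another gene and over unshared bases Dll1 was at 299.9 and Dll3 at 281 TPM. Among receptors Notch3 (117 ± 3.37 TPM) was above Notch4 (66.9 ± 4.30 TPM), Notch1 (42.2 ± 9.04 TPM) and Notch2 (28.6 ± 1.42 TPM), with ranges apart in that order. The targets and modifiers Lfng, Hes7 and Hes1 were at 155 ± 124, 148 ± 53.7 and 107 ± 17.8 TPM, and the SD of the first 2 is taken up with the spread between libraries. Nrarp was at 49.0 TPM over all its exon bases. Over unshared bases alone Nrarp was at 228, Hes7 at 163, Lfng at 149 and Hes1 at 103 TPM.

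Of 21 BMP and GDF ligand genes 7 passed. After Gdf11 came Bmp7 at 58.9 ± 2.87 TPM, Bmp2 at 20.9 ± 4.76 TPM and Bmp4 at 15.4 ± 3.16 TPM, while Bmp10 and Mstn had 0 counts. Gdf1 also had 0 counts, but all of its exon bases are shared with another gene, so its level was not measured. Receptors were led by Tgfbr1 at 119 ± 9.86, Bmpr1a at 103 ± 8.98 and Acvr1b at 84.8 ± 3.99 TPM, of which Tgfbr1 and Acvr1b are type I receptors that Gdf11 can use. Of the antagonists 8 of 12 passed, led by Twsg1 at 134 ± 5.52 TPM, and Cer1 had 0 counts. Nodal was at 0.639 ± 0.299 TPM.

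In the hedgehog pathway the ligand was low and the receptors were not. Shh was at 3.86, 6.43, 8.37 and 5.57 TPM, and Dhh and Ihh did not pass. Smo, the signal transducer, was at 144 ± 0.702 TPM, the receptor and target Ptch1 at 53.1 ± 2.34 TPM and the target Gli1 at 25.8 ± 0.881 TPM. Of 8 genes of retinoid synthesis and breakdown 6 passed, and of 9 genes of retinoid binding and reception 7 passed. Cyp26a1, which degrades retinoic acid in the tailbud, was at 397, 379, 473 and 354 TPM against 26.0, 23.3, 27.5 and 30.9 TPM for Aldh1a2. The other breakdown genes, Cyp26c1 and Cyp26b1, were lower, at 12.4 and 7.04 TPM on average, and the synthesis gene Rdh10 was at 19.3 TPM. The binding proteins Crabp2 and Crabp1 were at 550 ± 60.5 and 422 ± 20.9 TPM. Among the receptors Rarg was at 169, Rxrb at 73.6 and Rxra at 45.0 TPM on average, while Rarb, itself a retinoic acid target, had 1 or 2 counts in each library.

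**Figure D3:**
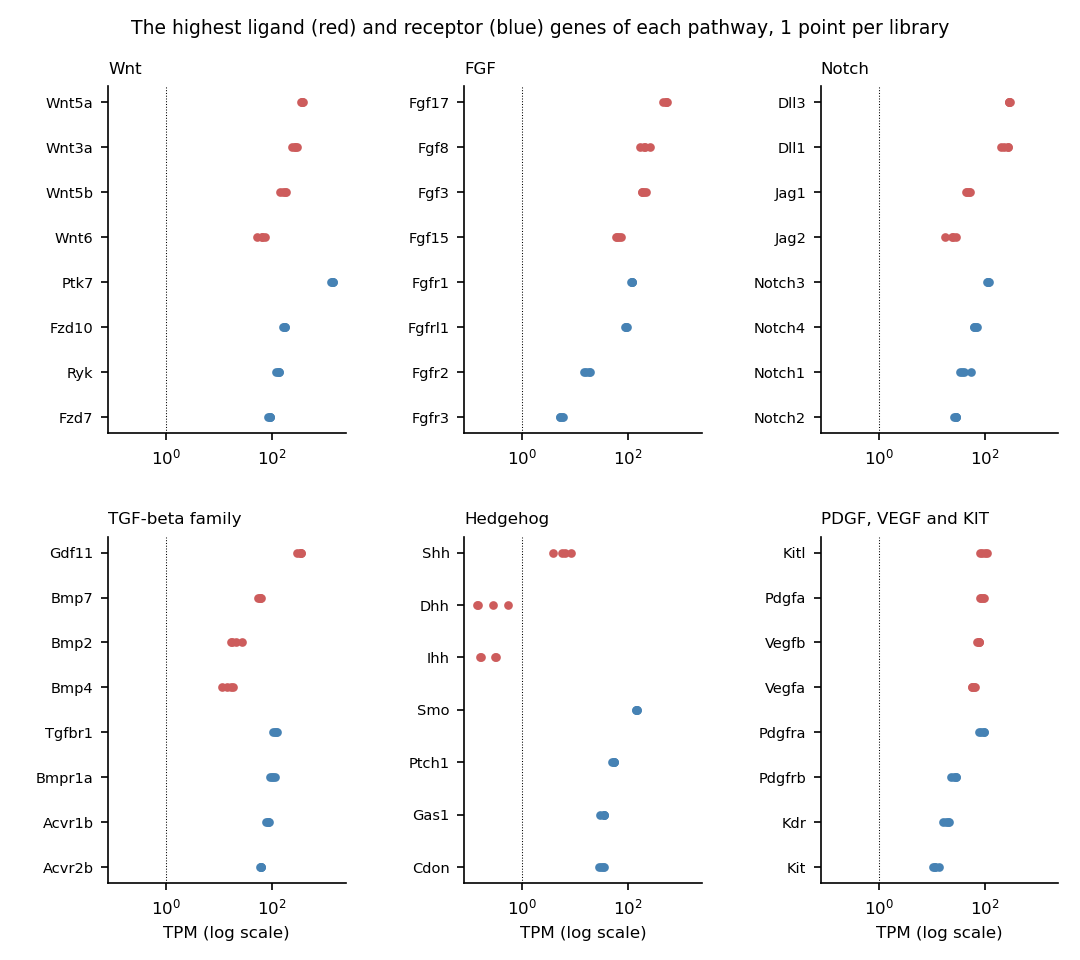
Points give the TPM of each of the 4 wildtype libraries on a log axis for up to 4 ligand genes (red) and 4 receptor or response genes (blue) with the highest mean in each pathway, with the dotted line at 1 TPM. Ptk7 is the highest point of all, and Shh lies below Smo and Ptch1 in every library.

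Among other signalling genes, Igf2, a growth factor that is abundant in embryos, was at 37.9 ± 1.51 TPM over its 5723 exon bases, of which 64.5% are shared with another gene, and at 103 TPM over the unshared bases. Igf2r, its clearing receptor, was at 109 ± 6.44 TPM and Igf1 at 0.669 ± 0.216 TPM. Kitl and Pdgfa were at 96.8 ± 12.3 and 88.5 ± 6.87 TPM, with the PDGF receptor gene Pdgfra at 89.6 ± 8.55 TPM. Of the Eph receptors 10 of 14 passed, led by Ephb4 at 272 ± 15.8 TPM, Epha1 and Epha4, and all 8 ephrin genes passed. The chemokine receptor gene Cxcr4 was at 88.7, 138, 103 and 139 TPM and its ligand gene Cxcl12 at 73.7, 74.1, 85.4 and 109 TPM. Their ranges overlapped. Of 23 cadherin genes 11 passed, led by Cdh3, the placental cadherin, at 142 ± 12.1 TPM. Cdh2, the neural cadherin, was at 112 ± 7.47 TPM and Cdh1, the epithelial one, at 99.8 TPM. Cdh2 was above Cdh1 in 2 of 4 libraries, and their ranges overlapped.

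The transcriptome as a whole was led by blood, mitochondrial and translation genes. The 10 highest genes held 11.9% ± 2.12 of TPM, the 100 highest 26.6% ± 1.76 and the 1000 highest 56.3% ± 1.01. The 3 highest genes by mean TPM were the embryonic globins Hbb-y, Hbb-bh1 and Hba-x at 37089, 18714 and 10715 TPM. The lead of Hba-x over the gene after it was small beside the spread of Hba-x between libraries, which is described below. They were followed by mt-Co1, a subunit of cytochrome oxidase, at 10534 ± 1396 TPM, by mt-Cytb and mt-Nd1, by the elongation factor Eef1a1 at 8004 ± 179 TPM and by Rplp1, a protein of the ribosomal stalk, at 7056 ± 288 TPM. The rest of the 20 highest by TPM were Mir6236, Hsp90ab1, Rps15, Gm23935, H19, mt-Nd2, mt-Nd5, Rplp0, Rpl4, mt-Nd6, Ptma and Tubb5. Of these 20, 9 have under 1000 exon bases, and Gm23935 (57 bases) is shorter than a read, so its TPM of 3868 ± 2331 cannot be read as a level of that gene.

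Counts ranked the genes differently, since long transcripts gather more reads. The 20 highest by CPM shared 10 genes with those by TPM, and the 10 that only CPM named were Nedd4, Tpm1, Eef2, Ldha, Scd2, Eif4g2, Pkm, Ncl, Hnrnpa2b1 and Fn1. Nedd4, a ubiquitin ligase with 10973 exon bases, was at 966 ± 52.5 TPM. Ldha and Pkm encode enzymes of the last steps of glycolysis, and Fn1 encodes fibronectin. Ribosomal protein genes held 8.69% ± 0.130 of TPM, mitochondrially encoded genes 4.09% ± 0.533 and histone genes 0.378% ± 0.0119. Protein coding genes held 95.4% of TPM. All 15 cell cycle genes passed, led by Top2a and Pcna at 416 ± 20.3 and 409 ± 7.31 TPM. The highest long noncoding RNA was the imprinted H19 at 3309, 3614, 3705 and 3862 TPM. Hoxb5os and Evx1os, which lie in or beside Hox clusters, were at 669 ± 40.8 and 232 ± 22.6 TPM and were named after their values were seen.

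The 4 embryos were alike for most genes. Over the 9747 genes with a mean of at least 10 CPM, the median CV was 4.99%, where counting error alone would give a median of 1.91%, and 139 genes (1.43%) had a CV over 20%. The biological CV estimated with edgeR was 8.49%. The 5 genes with the lowest CV were Ypel1, Srpk1, Nap1l4, Kansl1 and Zfp317, with CV between 0.296% and 0.394%. These values lie below the median that counting error alone would give, so they are not a measure of steadiness. The 10 most variable were Kdm5d, Eif2s3y, Ddx3y, Afp, Lfng, Slc15a2, Xist, Col1a1, Gm23935 and Mt2. No Hox gene with a mean of at least 10 CPM had a CV over 20%, and the median over these 38 genes was 6.68%. Hoxc10 varied least among them, at 256, 256, 260 and 262 CPM.

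**Figure D4:**
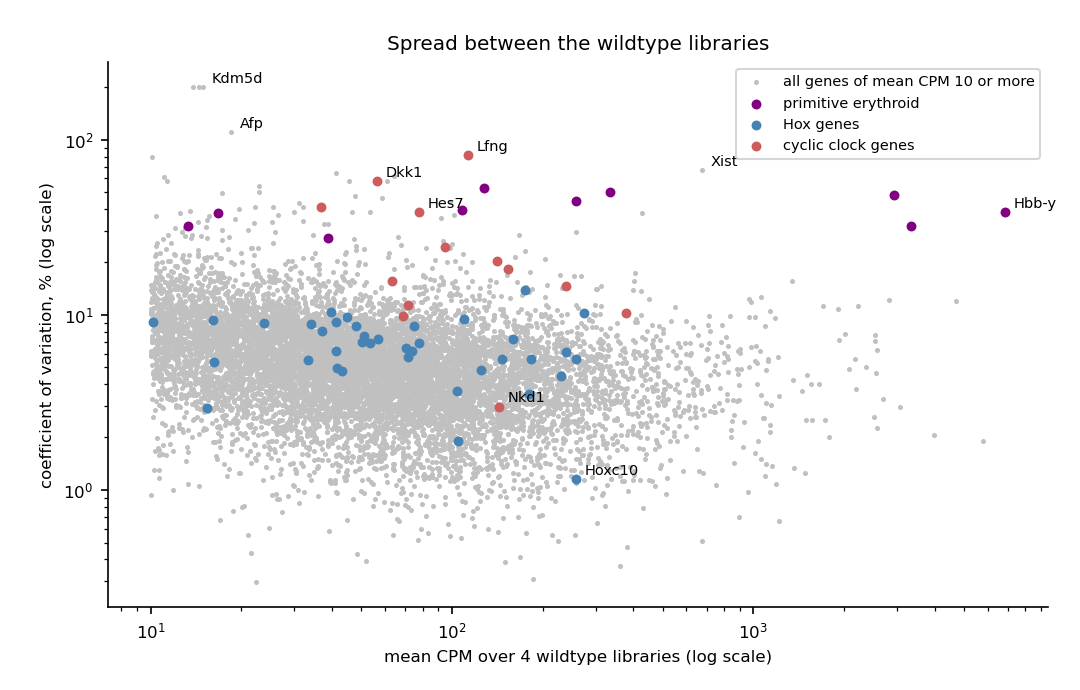
Each grey point is a gene with a mean of at least 10 CPM, at its mean CPM and its CV over the 4 wildtype libraries, both on log axes, with 3 gene lists in colour. Erythroid genes and the clock genes other than Nkd1 lie above most points of like CPM, and Hox genes lie among them.

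Genes of the segmentation clock differed between the embryos. The clock is a loop of Notch, FGF and Wnt targets that switch on and off with each somite. The 13 clock genes had a median CV of 18.3% against 4.99% for all genes, and 6 of them had a CV over 20% where 1.43% of all genes did. The list was written with earlier results of these data known, so these shares and those below are a description and not a test. Lfng was at 241, 44.7, 120 and 47.0 CPM in replicates 1 to 4, a range of 5.40-fold. Hes7, the repressor at the centre of the loop, was at 121, 54.0, 69.5 and 65.8 CPM. Nrarp was at 57.6, 27.6, 37.7 and 23.7 CPM. All 3 were highest in replicate 1 and next in replicate 3. Snai1, a repressor of epithelial genes, was at 121, 76.0, 107 and 75.2 CPM in the same order of the upper libraries. In 9 of the 13 clock genes the 2 highest libraries were replicates 1 and 3, namely in Hes1, Hes7, Hey1, Lfng, Nrarp, Dusp6, Spry2, Spry4 and Snai1. This was so in 8.56% of all 9747 genes, and on the TPM scale in 8 of the 13 clock genes and in 7.67% of all.

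Of the Wnt targets in the list, Dkk1 and Axin2 ran the other way. Dkk1, a secreted Wnt inhibitor, was at 30.6, 97.9, 30.3 and 67.4 CPM, so that replicates 2 and 4 were above replicates 1 and 3. Axin2, a Wnt feedback inhibitor, was at 135, 193, 131 and 153 CPM. These 2 clock genes had replicates 2 and 4 as their highest libraries, as did 9.42% of all genes. The Wnt antagonist genes Nkd1, at 145, 137, 147 and 146 CPM, and Nkd2, at 197, 229, 257 and 277 CPM, had replicates 3 and 4 as their highest pair, as did 20.7% of all genes. Further genes with the same patterns were named after their values were seen. Dusp4 was at 638, 296, 467 and 303 CPM, Efna1 at 133, 63.6, 103 and 67.8 CPM and Id1 at 129, 85.3, 106 and 75.2 CPM. With Dkk1 went Sp5 at 88.2, 111, 85.7 and 115 CPM and Msgn1 at 182, 265, 213 and 254 CPM. T, at 1146, 1189, 1070 and 975 CPM, and Tbx6, at 273, 234, 241 and 250 CPM, showed neither pattern. The promoters printed above are those of 2 genes of each pattern. Without replicate 1 the median CV of the clock genes was 19.1% and that of all genes 3.96%. The labels give neither a somite number nor a clock phase for the embryos.

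**Figure D5:**
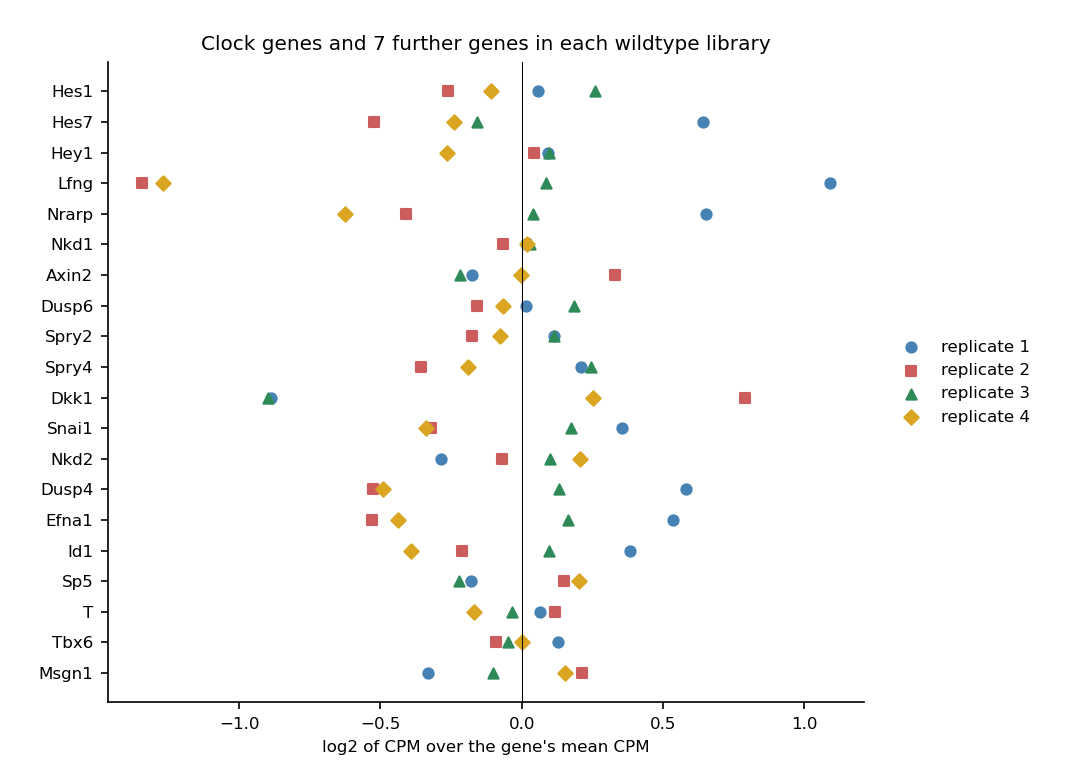
Points give the log2 of CPM in each of the 4 wildtype libraries over the mean CPM of the gene, for the 13 clock genes and, from Dusp4 down, 7 genes added after their values were seen. For Lfng, Hes7, Nrarp, Snai1, Dusp4, Efna1 and Id1 replicate 1 is highest and replicate 3 next, and for Dkk1, Axin2, Sp5 and Msgn1 replicates 2 and 4 are the highest pair.

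Blood genes varied together. Hbb-y was at 9994, 5227, 4190 and 7931 CPM, Hbb-bh1 at 4477, 2706, 2187 and 3975 CPM and Hba-x at 4849, 2149, 1627 and 3095 CPM. The libraries had the same order in each, from replicate 1 through 4 and 2 to 3. Haemoglobin genes together held 9.95%, 5.46%, 4.37% and 7.82% of TPM, or 5.88% on average without replicate 1. All 10 erythroid genes had a CV over 20%, including the membrane protein gene Slc4a1, the haem synthesis gene Alas2 and the erythroid factors Gata1 and Klf1. Gata1 was at 18.8, 11.2, 8.87 and 14.4 CPM. The part of blood in other differences between the libraries was not tested. Because a larger haemoglobin share lowers the TPM of all other genes, the clock and globin values are given as CPM, of which haemoglobin took 0.831% to 2.03%.

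Markers of liver and yolk sac endoderm, which lie outside a tailbud, were present unevenly. The summed level of the 9 genes was 33.5, 255, 15.1 and 90.1 TPM. Afp, a serum protein of visceral endoderm and liver, had 248, 2521, 2 and 1077 counts, and Apoa1 had 68, 1081, 11 and 263. Alb, the defining gene of hepatocytes, was at 0.0221 ± 0.0149 TPM. Replicate 2 was highest and replicate 3 lowest in each of Afp, Apoa1 and Rbp4, an order that differs from that of the globins. The 5 platelet and megakaryocyte genes summed to 23.0, 87.2, 73.8 and 75.4 TPM, lowest in replicate 1, where Pf4 was at 2.38 CPM against 9.96, 10.2 and 11.01 CPM in replicates 2, 3 and 4. Col1a1, the main collagen of bone and skin, was at 32.9, 78.9, 36.4 and 16.4 CPM and Slc15a2, a peptide transporter, at 17.7, 2.92, 3.47 and 16.2 CPM.

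Sex-linked genes separated replicate 3 from the others. Xist, the RNA of the inactive X chromosome, was at 854, 959, 1.77 and 882 CPM. The Y-linked genes Kdm5d, Eif2s3y and Ddx3y were at 59.8, 55.3 and 58.0 CPM in replicate 3 and had at most 2 counts in each of the other libraries. Their CV of 200% therefore comes from 1 library. Replicate 3 was also the lowest library for Hbb-y and Afp, and next to the highest for Lfng, and with 1 library on 1 side of this division its part in those differences cannot be told apart.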

How the data were processed

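The authors aligned the reads with STAR to mm10, per the submitters' processing notes, and deposited raw counts per gene with exon coordinates and summed exon lengths. The counting program was not given in the sources used here. A deposited table of the authors' own comparison (fold changes, p-values and FDR from edgeR) was not used. The symbols of the count table were matched to GENCODE M21 for gene classes, for 53034 of 54134 genes. Where every exon base of a gene was also exonic on the other strand (481 genes) or only on its own strand (644 genes), no gene reached more than 10 counts summed over the 4 libraries, against 34.6% of the 42762 genes without a shared exon base, so reads on bases shared by 2 genes appear not to have been counted. Of the genes that passed the filter, 12.9% share over 10% of their exon bases.

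CPM was computed over library totals and TPM with the deposited lengths, in Python 3.11.15 with pandas 2.3.3 and numpy 2.4.6. The biological CV was estimated with edgeR 4.0.16 in R 4.3.3 after TMM normalization over genes with over 10 counts and over 2 CPM in at least 2 libraries, and the estimate was tested on simulated data. DESeq2 1.42.0 gave alternative size factors. Plots were drawn with matplotlib 3.10.9. With 1 group there was no test between groups and no p-value. The replicates were separate embryos by their labels, and intervals between them are SD over 4 libraries. Depth lay between 44969068 and 55920173 counts, so that 3 counts, the limit that a count of 0 allows, stood for 0.0536 to 0.0667 CPM; this covers counting error only.

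Genes were named by rule: the 20 highest by mean TPM and by mean CPM, the 4 highest of each list by TPM and its members without a count, the 39 Hox genes, the 6 tailbud label genes, and the 10 highest and 5 lowest CV among genes of at least 10 CPM. Genes named outside it, such as defining markers with low values, were chosen after their values were seen. The gene lists, the motifs and the members were chosen with earlier results of these data known. Some genes that the rule names are not reported here.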

Additional observations from a re-analysis of the deposited data

Results flagged for a closer look

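For each gene named in the text whose 4 values were not all equal, the library farthest from the other 3 was compared with the whole range of the 4 CPM values, and a gene is listed here where the gap took up more of that range than Dixon's criterion for 4 samples allows. This was so for 13 of 221 genes (5.88%), and chance gives such a gap in about 1 group in 20. Replicate 3 was alone for the sex-linked genes, with Kdm5d at 59.8, Ddx3y at 58.0 and Eif2s3y at 55.3 CPM, all near 0 elsewhere, and Xist at 1.77 CPM against 854 or more in the other libraries. Replicate 4 was low for Sall4, at 272 CPM against 289 to 291, for Igf2bp1, an RNA-binding protein gene, at 347 CPM against 385 to 389, and for Hey1, a Notch target, at 59.3 CPM against 73.5 to 76.3. It was high for Cdx1, at 11.7 CPM against 9.72 to 9.94. Replicate 1 was low for the platelet gene Pf4, at 2.38 CPM, and for Prdm1, a factor of germ cells, at 3.32 CPM against 3.84 to 3.92. It was high for Tcf7, at 99.2 CPM against 96.4 to 96.8. Replicate 2 was low for Erbb3, a receptor of neural crest cells, at 28.1 CPM against 36.0 to 36.6, and high for Hoxb5, at 17.5 CPM against 15.8 in each of the others. For Tcf7 and Hoxb5 the gap was large only beside a narrow range, since the libraries differed little.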

How the results depend on the processing

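With no filter on low counts, 31057 genes had a count in at least 1 library against 12602 that passed, 200 tissue markers had a count against 111 that passed, and the biological CV was 10.3% instead of 8.49%. Without mitochondrially encoded and haemoglobin genes, the 100 highest genes held 18.99% of TPM instead of 26.6%, and 130 of 222 named genes moved in TPM by over 1 SD. Leaving out each library in turn moved the biological CV between 7.23% and 8.86%, the median CV between 3.96% and 5.18%, the median CV of the clock genes between 15.9% and 21.7%, the haemoglobin share between 5.88% and 7.74% and the number of genes passing between 12483 and 12526. The lowest biological and median CV were those without replicate 1. Exon bases that no other gene shares moved the TPM of 46 of 230 named genes by over 1 SD. Of 567 listed genes at 0.5 TPM or more, 16 changed over 1.5 times, among them Nrarp from 49.0 to 228 TPM and Igf2 from 37.9 to 103 TPM, and genes that share no base changed by a factor of 0.959. Size factors from DESeq2 moved 5 of 231 CPM values by over 1 SD, and TMM sizes moved none. The levels of Ddx3y, Eif2s3y and Kdm5d rest on replicate 3 and were near 0 without it. No paired analysis was possible because all 4 libraries belong to 1 group and no groups were compared.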
